A study of Mus musculus with 6 samples.

Results

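The data described here are the messenger RNA levels of 30 channel genes in mouse hippocampus, namely voltage-gated sodium and calcium channel subunits, the sodium leak channel, and HCN and TRPC channels. Members were the rows of the deposited gene count table whose gene name was on a fixed list, and they made up 30 of the 55421 genes in that table. All 30 members were abundant enough to be tested, out of 17069 tested genes. Hippocampi came from 8- to 10-week-old wild-type male C57BL/6N mice, 3 per group. The SP group was injected under the skin with substance P, a neuropeptide of the tachykinin family, at 10 µM in 100 µL for 14 days. The vehicle group was injected with the same volume of saline, and each mouse gave 1 library.

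Voltage-gated sodium and calcium channels are built from a large pore-forming alpha subunit that opens on depolarisation, together with smaller subunits that set how much channel reaches the membrane and how it gates. Sodium channels carry the rising phase of the action potential, and calcium channels couple depolarisation to transmitter release, dendritic signalling and transcription. HCN channels open on hyperpolarisation and shape dendritic integration in hippocampal pyramidal cells, whereas TRPC channels are cation channels that open downstream of receptors coupled to Gq and phospholipase C, such as the main substance P receptor.

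Levels are given as CPM, a gene's counts scaled by the size of its library. Library totals ranged from 22349964 to 27605935 counts, and the 30 genes together took 0.380% to 0.417% of them. On the first principal component of all tested genes, which held 38.6% of the variance, SP replicate 3 lay at -4.28, nearer to the vehicle libraries (-11.7 to -8.60) than to SP replicates 1 and 2 (20.24 and 14.996). All 8 CA1, 7 CA3 and 9 dentate granule cell markers on fixed lists were detected and tested. The 8 pan-neuronal markers were tested too, and their summed level was 5500.5 to 5536 CPM in vehicle and 5487 to 5647 CPM in SP libraries. The sum adds genes that lay in opposite directions. The SP and vehicle values did not overlap for 3 of the 8, and for 18.2% of all tested genes. Among the 3 were Map2, lower in every SP library, and Snap25, higher in every one. Their unadjusted p in edgeR's quasi-likelihood test was 0.097 and 0.335. In that test 1 of the 8 was higher and 0 lower in SP at an unadjusted p under 0.05, beside 4.48% and 5.59% of all tested genes. In bulk tissue, fewer cells of a type and less RNA per cell cannot be told apart.

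No member passed the threshold of a false discovery rate (FDR) under 0.1 with a log2 difference beyond 0.3 in edgeR's quasi-likelihood test, and 0.0293% of all tested genes, 5 of them, did. At an unadjusted p under 0.05 there were 4 members, Cacnb4 and Hcn4 lower and Cacnb3 and Cacna1h higher in the SP libraries. That was 13.3% of members beside 10.1% of all tested genes, with 6.67% higher beside 4.48% and 6.67% lower beside 5.59%. These shares were close to those of the whole transcriptome. The 3 SP values lay wholly outside the 3 vehicle values for 6 members, or 20% beside 18.2% of all tested genes. Cacnb1 and Cacnb3 were on the higher side, and Scn1a, Scn2a, Cacnb4 and Hcn4 on the lower side. The median log2 difference was 0.022 over the members and 0.0015 over all tested genes, with 18 members above 0 and 12 below. The 95% confidence interval lay entirely within 0.3 of 0 on the log2 scale for 22 of the 30 members, so for most of these genes a large difference in either direction was outside the interval.

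**Figure D1:**
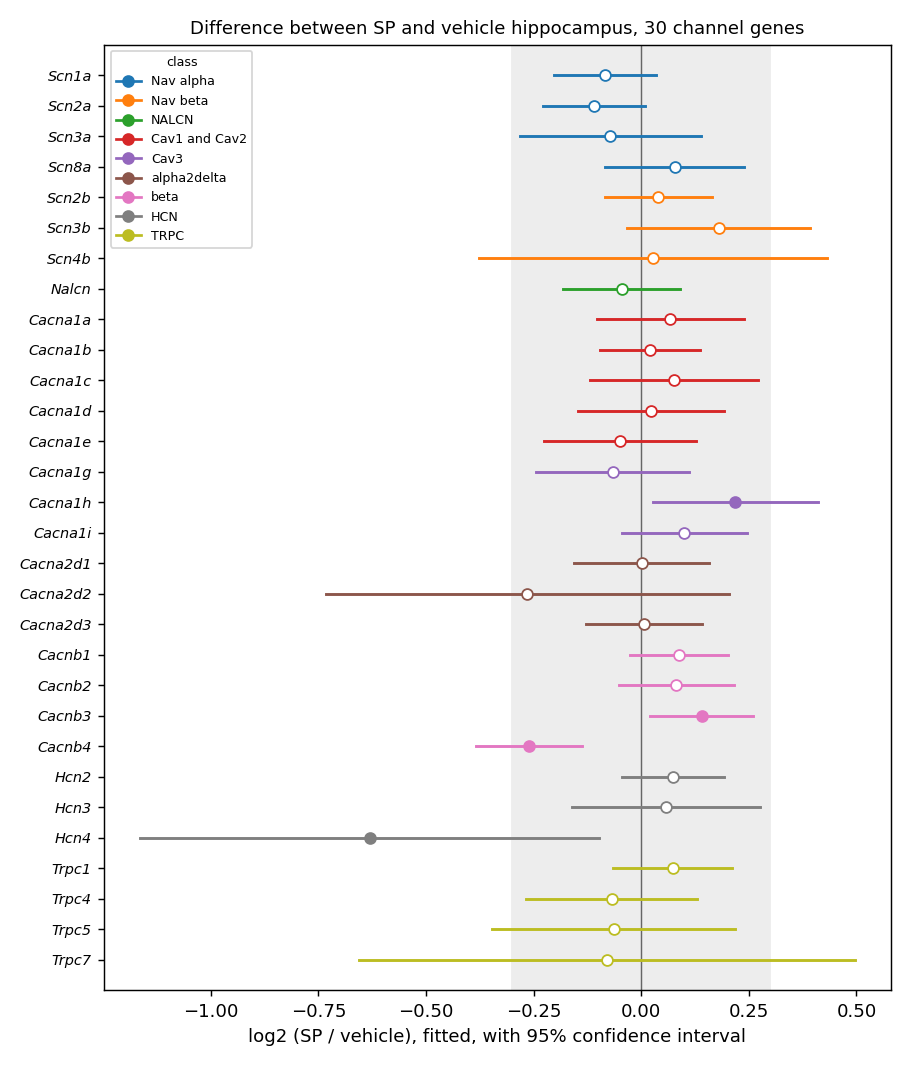
Fitted log2 difference between SP and vehicle (horizontal axis) for the 30 channel genes (vertical axis, coloured by class), each with its 95% confidence interval; filled points have an unadjusted p under 0.05 and the grey band spans 0.3 on either side of 0. Values run from -0.63 for Hcn4 to 0.22 for Cacna1h, and 22 intervals stay inside the band.

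The sodium channel alpha genes encode the pores of neuronal action potentials. Scn8a (Nav1.6, the main channel of the mature axon initial segment) was the most abundant per kilobase of exon, at 24.5 CPM per kilobase in the vehicle mean. It was followed by Scn2a (Nav1.2, of unmyelinated axons and developing initial segments) at 22.5, Scn1a (Nav1.1, prominent in interneurons) at 10.0 and Scn3a (Nav1.3, mostly embryonic) at 4.47 CPM per kilobase. Scn8a and Scn2a therefore made up most of the length-scaled level of the class.

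Of these genes, Scn1a, Scn2a and Scn3a lie in a cluster on chromosome 2 and share stretches of coding sequence, so their reads had to be split between them by the authors' quantification. Of the 31-base words in their transcripts, 7.29%, 9.16% and 9.57% also occurred in other genes on the same strand, against 0.490% for Scn8a on chromosome 15. The values of these 3 genes were fractional in all 6 libraries before rounding, so each is an estimate that depends on how shared reads were divided.

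Scn2a (ENSMUSG00000075318, chr2:65620771-65767447, plus strand) was measured at 284, 281 and 295 CPM in vehicle replicates 1 to 3 and at 254, 273 and 271 CPM in SP replicates 1 to 3. Each SP library was below each vehicle library. The log2 difference was -0.11 ± 0.051 (SE), with an FDR of 0.521. Scn1a (ENSMUSG00000064329, chr2:66270778-66440840, minus strand) was at 112, 112 and 110.3 CPM in vehicle and at 106, 103 and 106 CPM in SP libraries, a log2 difference of -0.084 ± 0.050 with an FDR of 0.616. Its groups did not overlap either, but the fitted difference was only 5.63% of the vehicle level. After a correction that removes, library by library, the dependence of counts on transcript GC content and length, the difference was -0.056 for Scn2a and -0.033 for Scn1a, smaller in size in both.

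Scn8a (ENSMUSG00000023033, chr15:100869858-101045938, plus strand) was at 384, 380.3 and 393 CPM in vehicle and at 388, 455 and 382 CPM in SP libraries. Only SP replicate 2 was above the vehicle range, and the log2 difference was 0.078 ± 0.069 with an FDR of 0.748. For Scn3a the log2 difference was -0.071 ± 0.090 and the libraries overlapped. As a share of the summed length-scaled level of the 4 alpha genes, Scn8a took 39.8% ± 0.249 (SD, n = 3) in vehicle and 42.8% ± 1.97 in SP libraries. Scn2a took 36.6% ± 0.231 and 34.6% ± 1.39. Both shares were separated between groups, with an exact two-sided permutation p of 0.1, the smallest that 3 against 3 libraries allow. Shares of a class sum to the whole, so a higher share of any gene lowers the others and the pair is not independent.

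The sodium channel beta genes encode small adhesion-like subunits that modulate gating and surface expression. Scn2b (ENSMUSG00000070304, chr9:45117782-45130070, plus strand) had the highest length-scaled level of all 30 genes, 54.3 CPM per kilobase in vehicle. Its CPM was 262, 255 and 242 in vehicle and 253, 271 and 255 in SP libraries, so the groups overlapped. The log2 difference was 0.040, with a 95% confidence interval from -0.085 to 0.16. Scn3b was at 257, 231 and 256 CPM in vehicle and at 269, 320.4 and 256.2 CPM in SP libraries, a log2 difference of 0.18 ± 0.091 with an FDR of 0.554. SP replicate 2 stood highest, and without replicate 2 of both groups the difference was 0.032. Scn4b, the low member of the class, differed by 0.028 ± 0.17, and the sign of its difference turned without replicate 2, to -0.24.

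Nalcn (ENSMUSG00000000197, chr14:123276634-123627144, minus strand) encodes the voltage-independent sodium leak channel that sets resting excitability. It was at 105, 108 and 101 CPM in vehicle and at 101, 97.7 and 105 CPM in SP libraries. The groups overlapped, and the log2 difference was -0.045 with a 95% confidence interval from -0.18 to 0.090. None of the 3 tested genes of its complex, Unc79, Unc80 and Fam155a, with a median log2 difference of 0.024, had an unadjusted p under 0.05 in edgeR's test.

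**Figure D2:**
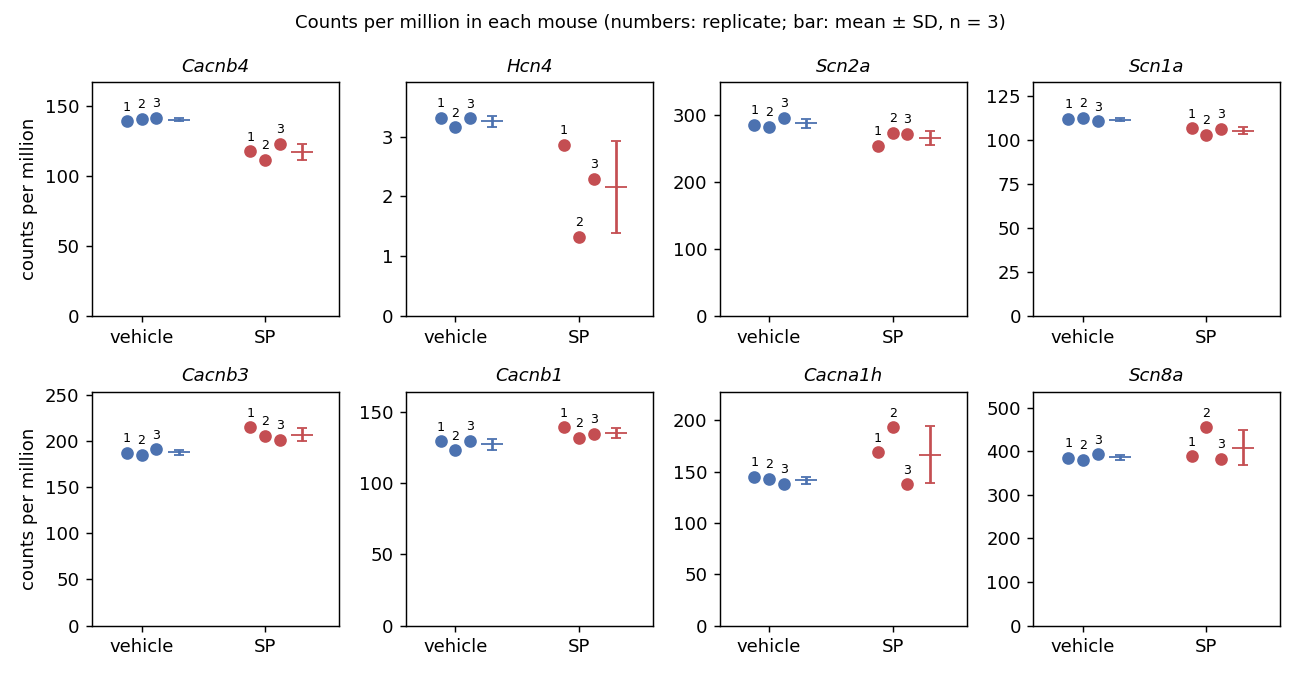
CPM (vertical axes, from 0) in each of the 3 vehicle and 3 SP libraries for 8 members, with the replicate number above each point and the mean ± SD beside each group. Cacnb4, Hcn4, Scn2a and Scn1a are lower and Cacnb3 and Cacnb1 higher in all 3 SP libraries, whereas in Cacna1h and Scn8a SP replicate 2 lies above the rest and SP replicate 3 within or next to the vehicle values.

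None of the high-voltage-activated calcium channel pore genes had an unadjusted p under 0.05 in edgeR's test. Cacna1e (Cav2.3, the R-type channel of spines and dendrites; ENSMUSG00000004110, chr1:154390731-154884501, minus strand) was the most abundant at 20.3 CPM per kilobase in vehicle. Its CPM was 510.4, 492 and 532 in vehicle and 479.9, 546 and 462 in SP libraries, spanning the vehicle range on both sides. Its log2 difference was -0.048, with a 95% confidence interval from -0.23 to 0.13. Cacna1a (Cav2.1, the P/Q-type channel of transmitter release) differed by 0.067 ± 0.073, and Cacna1b (Cav2.2, the N-type channel of transmitter release) by 0.021 ± 0.050. The L-type genes Cacna1c (Cav1.2) and Cacna1d (Cav1.3), which link activity to transcription, differed by 0.076 ± 0.084 and 0.023 ± 0.072. The FDR of the 5 genes was 0.801 to 0.941, and all 5 intervals lay within 0.3 of 0. Within the class, Cacna1e took 32.1% ± 0.642 of the summed length-scaled level in vehicle and 30.7% ± 0.2504 in SP libraries, with an exact two-sided permutation p of 0.1. Summed over the 5 genes, the level was 63.2 ± 1.21 (SD) in vehicle and 64.1 ± 5.58 CPM per kilobase in SP libraries.

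The T-type, low-voltage-activated calcium channels support burst firing and subthreshold signalling. Cacna1h (Cav3.2; ENSMUSG00000024112, chr17:25374285-25433783, minus strand) was the most abundant of them and had the highest log2 difference of all 30 genes, 0.22 ± 0.082, with an FDR of 0.449. Its CPM was 145, 143 and 138.1 in vehicle and 169, 193 and 137.6 in SP libraries. SP replicates 1 and 2 were above every vehicle library and SP replicate 3 was below every one. Without SP replicate 3, in a fit with no replicate block, the difference was 0.35 with an FDR of 0.0569, past the threshold. Without SP replicate 2, likewise with no block, it was 0.11. Cacna1g (Cav3.1) differed by -0.067 ± 0.076 and Cacna1i (Cav3.3) by 0.10 ± 0.062, both with overlapping groups. In SP replicate 2, Cacna1h took 55.0% of the class and Cacna1g 23.0%, whereas in the other 5 libraries Cacna1h took 44.0% to 48.7% and Cacna1g 29.8% to 32.0%.

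The alpha2delta subunits are extracellular partners that traffic calcium channels to presynaptic terminals, and Cacna2d1 and Cacna2d2 are the binding sites of gabapentinoid drugs. Cacna2d1 (ENSMUSG00000040118, chr5:15934691-16374511, plus strand) was at 198, 187 and 203 CPM in vehicle and at 198, 209 and 182 CPM in SP libraries. Its log2 difference was 0.0010 with a 95% confidence interval from -0.16 to 0.16. Cacna2d3 differed by 0.0059, with an interval from -0.13 to 0.14. These were the smallest differences among the 30 genes. Cacna2d2 varied most between mice of this class, at 38.0, 57.5 and 38.6 CPM in vehicle and 32.7, 30.4 and 48.8 CPM in SP libraries. Its log2 difference of -0.26 ± 0.20 had an FDR of 0.693, was -0.58 without replicate 3 and was 0.065, with the sign turned, without replicate 2.

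Of the calcium channel beta genes, Cacnb4 had the smallest unadjusted p of the 30 members. Beta genes encode cytoplasmic subunits that hold high-voltage-activated alpha subunits at the membrane and tune their gating. Cacnb4 (ENSMUSG00000017412, chr2:52428320-52676831, minus strand), the beta subunit mutated in the epileptic lethargic mouse, was at 139, 140.4 and 141 CPM in vehicle and at 117, 111 and 122.8 CPM in SP libraries. The vehicle libraries were nearly level, and each SP library was below all of them. The means were 140.1 ± 1.27 and 117 ± 5.89 CPM (SD, n = 3), and the fitted difference was a log2 of -0.26 ± 0.053, or -16.5%. Its unadjusted p was 0.00146, but its FDR of 0.308 missed the threshold. The unadjusted p stayed under 0.05 in all 18 alternative analyses, with log2 differences from -0.30 to -0.19. The value of -0.19, the smallest in size, came after the GC and length correction. The FDR ran from 0.00954 to 0.762 over these analyses. In 3 of them its FDR was under 0.1, at 0.00954 with DESeq2 and no replicate block, 0.0336 with no filter on low counts and 0.0542 without SP replicate 3 and with no block, but the log2 difference did not exceed 0.3 in size in any, falling just short of it without SP replicate 3.

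Cacnb3 (ENSMUSG00000003352, chr15:98630840-98644529, plus strand), the most abundant beta gene at 46.7 CPM per kilobase in vehicle, lay in the opposite direction. It was at 187, 185 and 191 CPM in vehicle and at 214, 205 and 201 CPM in SP libraries, with no overlap. The means were 187 ± 3.00 and 207 ± 7.06 CPM (SD, n = 3), a log2 difference of 0.14 ± 0.051 with an FDR of 0.437. After the GC and length correction it was 0.075. Its unadjusted p was not under 0.05 in 3 of the 18 alternatives, namely that correction, DESeq2 with the replicate block, and the fit without replicate 1. Cacnb1 (ENSMUSG00000020882, chr11:98001508-98023034, minus strand), best known from skeletal muscle, was at 129, 122.98 and 129.7 CPM in vehicle and at 139, 132 and 135 CPM in SP libraries. Those groups did not overlap, and the log2 difference was 0.087 ± 0.049 with an FDR of 0.592. After the same correction it was 0.032. Cacnb2, which is also used in heart, differed by 0.082 ± 0.057 with overlapping groups.

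Within the beta class, Cacnb4 took 16.2%, 16.7% and 16.3% of the summed length-scaled level in vehicle libraries and 12.8%, 12.6% and 13.9% in SP libraries. Cacnb3 took 48.9%, 49.1% and 49.2% in vehicle and 52.1%, 52.2% and 50.9% in SP libraries. The SP shares of the pair were thus separated from the vehicle shares in opposite directions, by -3.28 and 2.70 percentage points. Each had an exact two-sided permutation p of 0.1, the smallest possible, and an adjusted p of 0.414 over the 29 shares compared by exact permutation. In all, 7 of the 29 shares reached that smallest value, those of Scn2a, Scn8a, Cacna1e, Cacnb3, Cacnb4, Hcn4 and Trpc1. No share had an adjusted p below 0.414 by exact permutation. Shares of a class sum to the whole, so a lower Cacnb4 share raises the others. Opposite directions within a class are thus not independent results. The summed level of the 4 beta genes was 95.3 ± 1.44 (SD) in vehicle and 99.6 ± 2.60 CPM per kilobase in SP libraries.

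**Figure D3:**
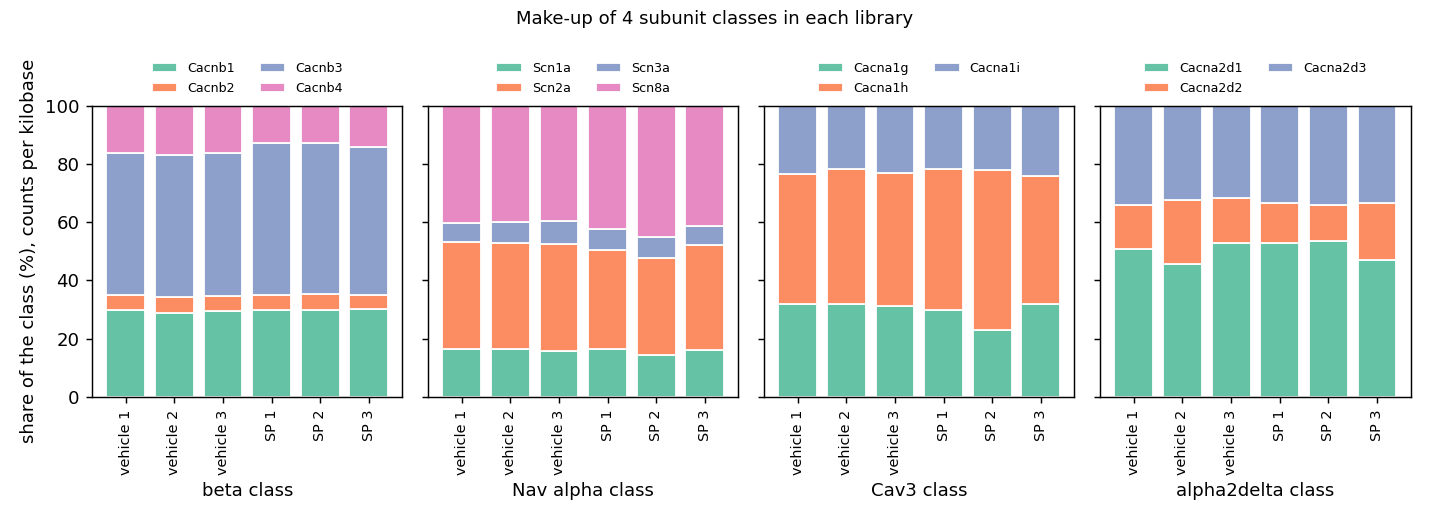
Share of each gene in the summed length-scaled level of its class (vertical axis, percent) in each library (horizontal axis) for the beta, sodium channel alpha, Cav3 and alpha2delta classes. The Cacnb4 segment spans 16.2% to 16.7% in vehicle and 12.6% to 13.9% in SP libraries, and the Cacna1h segment is widest in SP replicate 2, at 55.0%.

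The genomic sequence before an annotated start of Cacnb4 and of Cacnb3 is given because this pair carried the opposite differences. Each run is the 250 bases before 1 of the gene's RefSeq starts, chosen as the window that overlaps no annotated exon, and capitals mark a CCAAT box (CCAAT, or ATTGG on the other strand). The Cacnb4 window is chr2:52558612-52558861 on the minus strand and the Cacnb3 window is chr15:98632078-98632327 on the plus strand (GRCm38.p6, RefSeq).
Cacnb4: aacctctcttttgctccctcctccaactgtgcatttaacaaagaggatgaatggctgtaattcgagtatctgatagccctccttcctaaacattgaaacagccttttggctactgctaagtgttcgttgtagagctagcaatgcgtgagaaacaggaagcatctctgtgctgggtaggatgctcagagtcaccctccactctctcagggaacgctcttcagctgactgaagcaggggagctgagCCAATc
Cacnb3: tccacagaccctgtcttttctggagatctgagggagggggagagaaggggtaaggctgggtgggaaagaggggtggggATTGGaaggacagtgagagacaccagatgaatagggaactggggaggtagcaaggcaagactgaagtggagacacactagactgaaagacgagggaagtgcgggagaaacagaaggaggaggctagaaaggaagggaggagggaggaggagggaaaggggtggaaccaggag
The Cacnb4 window is 48.8% G and C and the Cacnb3 window 56.0%, beside a median of 62.6% over the 34 windows of the 24 members with an entry and 52.4% over all windows. A CCAAT box was found on either strand in 33.8% of all 32851 windows. The windows of the same genes that overlap an exon differ from these, at 71.2% and 79.6% G and C for Cacnb4 and 70.4% for Cacnb3. A GC box (GGGCGG), held by 32.7% of all windows, occurs 6 times in the second of these Cacnb4 windows and 3 times in that of Cacnb3, but not in the printed runs. The counts, made per gene, do not separate the starts. A match is a description of the letters only.

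Composition and overlap with other genes were measured beside these differences. Across the 30 members, the transcript's GC content and the log2 difference had a Spearman's rho of 0.40, and across the 17050 tested genes with an entry rho was 0.23. Pearson's r was 0.14 over the members and 0.11 over those tested genes, so the members stood out less by that measure. Genes share the same 6 libraries and are not independent, so all of these values are descriptions. The 15 members of lower GC content had a median log2 difference of -0.045 and the 15 of higher GC content 0.057. Cacnb4, at 40.5% GC, is among the first and Cacnb3, at 61.3%, among the second. Of the 31-base words of Cacnb4, 15.5% also occur on the opposite strand in other genes, most in A430018G15Rik, which had 14 to 38 counts per library. The library kit marks strand, but how strand was used in counting is not given in the sources used here.

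HCN channels were dominated by Hcn2 (ENSMUSG00000020331, chr10:79716634-79736108, plus strand), which took 88.9% of the summed length-scaled level of the 3 genes in vehicle and 89.6% in SP libraries. It was at 90.5, 96.5 and 90.5 CPM in vehicle and at 98.0, 99.7 and 94.3 CPM in SP libraries, and vehicle replicate 2 lay within the SP range. The log2 difference was 0.074 ± 0.051 and it was -0.012, with the sign turned, after the GC and length correction. Hcn3 differed by 0.057 ± 0.093.

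Hcn4 (ENSMUSG00000032338, chr9:58823412-58863175, plus strand), the pacemaker channel of heart and thalamus, had the lowest length-scaled level of the 30 genes. It was counted 77, 78 and 91 times in vehicle and 67, 32 and 51 times in SP libraries, that is at 3.31, 3.15 and 3.30 CPM and at 2.85, 1.33 and 2.29 CPM. All 3 SP libraries were below the vehicle libraries, which were nearly level, while the SP libraries spread widely. The log2 difference of -0.63 ± 0.23 was the largest in size of the 30 genes, with an FDR of 0.436. It was -0.34 without SP replicate 2 in a fit with no replicate block, and -0.37 without replicate 2 of both groups. At these counts, a count of 3, the level that a count of 0 allows, corresponds to 0.109 to 0.135 CPM, so Hcn4 was well above the floor. That floor covers counting error only. None of the HCN auxiliary genes Pex5l, Kcne2 and Nedd4l had an unadjusted p under 0.05 in edgeR's test, with log2 differences of 0.051 ± 0.050, -1.13 ± 0.63 and 0.074 ± 0.090. Kcne2, which is also expressed in choroid plexus, was at 1.28 CPM in SP replicate 1 and at 18.6 to 29.01 CPM in the other libraries, and the summed choroid plexus markers were lowest in the same library, at 176 CPM.

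The TRPC genes encode receptor-operated cation channels, and all 4 members had overlapping groups. Trpc4 (ENSMUSG00000027748, chr3:54156035-54318471, plus strand), the most abundant per kilobase, was at 49.5, 51.6 and 44.5 CPM in vehicle and at 47.6, 42.3 and 48.9 CPM in SP libraries. Its log2 difference was -0.069, with a 95% confidence interval from -0.27 to 0.13. Trpc1, which forms mixed channels with Trpc4 and Trpc5, differed by 0.073 ± 0.059. Trpc5 differed by -0.064 ± 0.12, and Trpc7 at 2.03 to 3.60 CPM by -0.080 ± 0.25. The interval for Trpc7 ran from -0.66 to 0.50, so sizeable differences in either direction lay inside it. Trpc1 took 35.3% ± 1.19 of the class in vehicle and 37.5% ± 0.880 in SP libraries (SD, n = 3), with an exact two-sided permutation p of 0.1. When the longest transcript was used in place of all merged exons, that exact permutation p was 0.3.

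Across the 30 genes, length-scaled levels spanned a ratio of 124 between Scn2b and Hcn4, taking the mean of the 6 libraries. Scn2b, Cacnb3 and Scn3b led at 55.1, 49.1 and 48.5 CPM per kilobase, and a gap that no library bridged separated them from Hcn2 at 29.7. The next genes were Cacnb1, Scn8a and Scn2a at 28.998, 25.2 and 21.7 CPM per kilobase. Trpc7 and Hcn4, at 0.786 and 0.442, were set apart at the bottom by a gap below Trpc5 at 2.81. Of the 29 pairs of neighbours in this order, 24 had overlapping ranges over the 6 libraries. Both genes of a pair were measured in the same libraries, so overlap alone does not leave their order open. Scn2b, for example, was above Cacnb3 in each of the 6 libraries, at 54.3 and 53.5 CPM per kilobase in SP replicate 1. Order within each library was not counted for the other pairs.

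**Figure D4:**
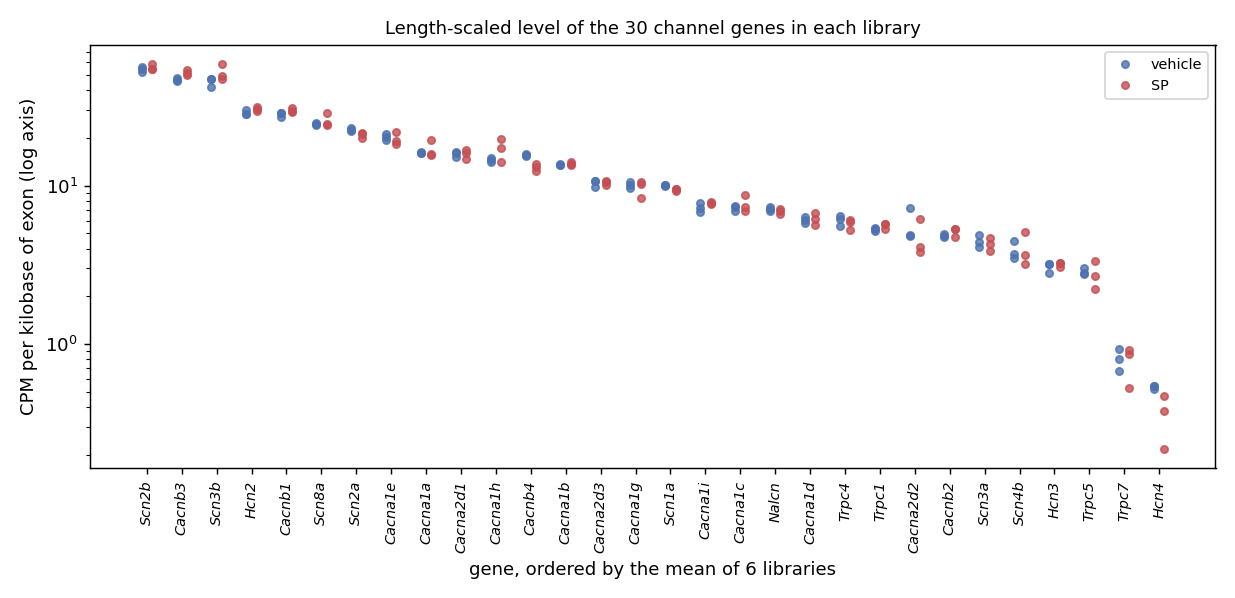
CPM per kilobase of merged exon (vertical axis, log scale) of the 30 genes in each of the 3 vehicle and 3 SP libraries, ordered by the mean of all 6. Scn2b, Cacnb3 and Scn3b lie at 42.2 CPM per kilobase or more in every library, Trpc7 and Hcn4 below 1, and the group difference is small beside the spread between genes.

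The spread between mice was uneven over the libraries. SP replicate 2 had the highest value of the 6 libraries for 16 members and the lowest for 8, so it was extreme for 80% of members, beside 46.2% of all tested genes. The other 5 libraries were extreme for 13.3% to 36.7% of members, and SP replicate 3 was the highest for none. The median absolute log2 deviation from the mean of the 6 libraries was 0.11 in SP replicate 2 and 0.047 to 0.065 in the others. Cacna1a, Cacna1c, Scn8a and Scn3b were highest, and Cacna2d2, Hcn4, Trpc7 and Cacna1g lowest, in SP replicate 2. Cacnb4, Cacnb3, Scn1a and Scn2a kept their direction without it, at -0.22, 0.13, -0.062 and -0.14 without replicate 2 of both groups.

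**Figure D5:**
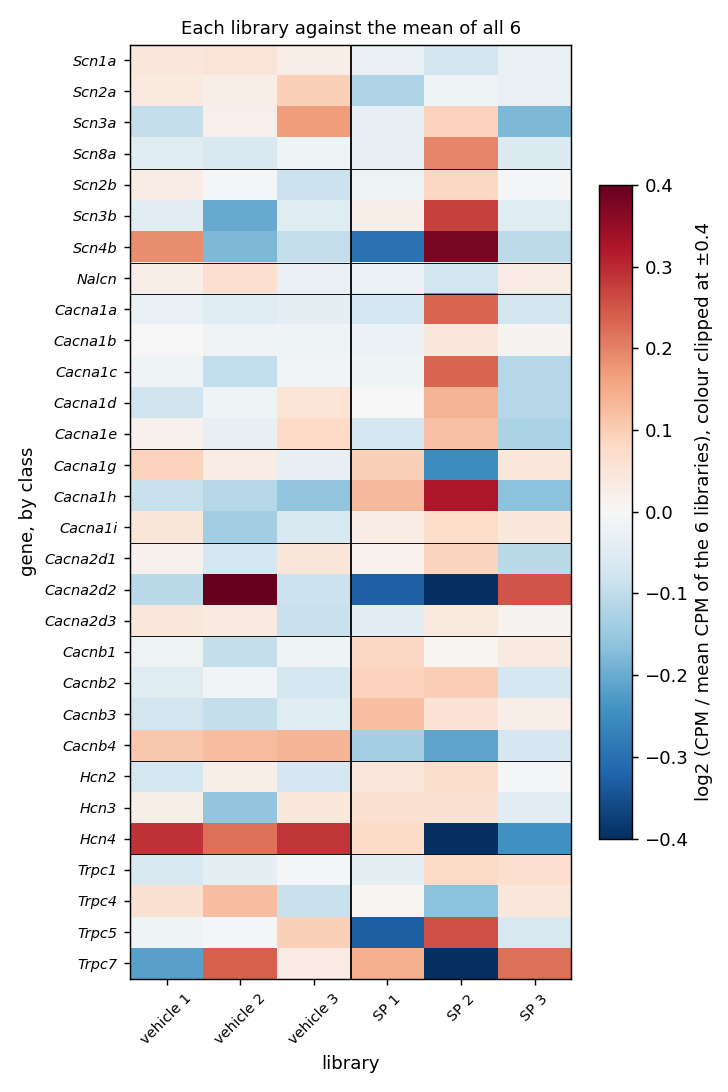
Log2 ratio of each library's CPM to the mean CPM of all 6 libraries (colour, clipped at 0.4) for the 30 members (rows, by class) in each library (columns). SP replicate 2 carries the strongest colours in both directions, with the highest value for 16 members and the lowest for 8.

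Markers of cell types and neighbouring regions also differed between the libraries. Of all tested genes, 4.48% were higher and 5.59% lower in SP libraries at an unadjusted p under 0.05 in edgeR's test. Of 10 oligodendrocyte markers, 7 were higher at an unadjusted p under 0.05, and their summed level was 2226 to 2548 CPM in vehicle and 2575 to 3707 CPM in SP libraries, highest in SP replicate 2. Of 7 CA3 pyramidal cell markers, 5 were higher and 1 lower, with sums of 255 to 276 and 288 to 329 CPM. Of 5 layer 6b and subplate markers, 3 were lower, with sums of 39.8 to 46.1 and 28.6 to 32.0 CPM, and of 10 neocortical layer markers, 3 were lower, with sums of 476 to 499 and 413 to 462 CPM. The 9 dentate granule cell markers, of which 1 was higher, summed to 401 to 419 CPM in vehicle and to 479, 568 and 362 CPM in SP replicates 1 to 3, and Cacna1h too was above the vehicle range in SP replicates 1 and 2 and below it in SP replicate 3. Of 5 subiculum markers, 2 were lower, with sums of 114 to 125 and 83.2 to 108 CPM. Of 8 CA1 pyramidal cell markers, 2 were higher and 2 lower, with sums of 816 to 920.2 and 754 to 913 CPM. The 10 interneuron markers summed to 564 CPM in SP replicate 2 and to 703 to 790.3 CPM in the other libraries. Cerebellar markers summed to 49.3 CPM in SP replicate 1 and to 16.3 to 18.2 CPM in the others, and choroid plexus markers to 176 CPM in SP replicate 1 and 2824 to 4761 CPM in the others. No listed marker of these 10 groups was at or under the floor of 3 counts in all libraries. The part of these shifts in the differences of Cacnb4, Cacnb3, Cacna1h and Hcn4 was not tested.

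Genes that act with these channels showed a few larger values, none past the threshold. Of 13 calcium channel regulators and store-operated entry genes, 2 were higher and 0 lower at an unadjusted p under 0.05 in edgeR's test, with a median log2 difference of 0.11 beside 0.0015 over all tested genes. Of all tested genes, 4.48% were higher and 5.59% lower at that p. Rem2, a small GTPase that binds beta subunits and inhibits calcium channels, was at 11.1, 12.2 and 10.99 CPM in vehicle and at 15.4, 16.8 and 15.1 CPM in SP libraries. The groups were well apart, with a log2 difference of 0.46 ± 0.081 and an FDR of 0.308. Orai2, a pore subunit of store-operated calcium entry, was at 147, 145 and 148 CPM in vehicle and at 182, 213 and 158 CPM in SP libraries, a log2 difference of 0.32 ± 0.084 with an FDR of 0.351. Of 9 sodium channel clustering genes and FGF homologous factors, 2 were lower, with a median over the list of -0.012, Fgf12 at -0.30 ± 0.10 with an FDR of 0.424 and Fgf11 at -0.19 ± 0.082 with an FDR of 0.492.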

How the data were processed

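Hippocampal RNA was extracted with Trizol and libraries were made with a stranded mRNA kit. Per the labels, the authors' processing named Trim Galore, STAR and Salmon, with no versions given, and the deposited table holds Salmon's estimated counts per gene (expected counts), 7.75% of them not whole. Estimated counts were rounded to whole numbers. Genes with enough counts were kept (filterByExpr, minimum count 10), scaled by TMM and tested with edgeR 4.0.16 (R 4.3.3) by the quasi-likelihood test with Benjamini-Hochberg adjustment over all tested genes, with the replicate number as a block because the labels call it a batch. Deviations of same-numbered libraries correlated at 0.013, -0.066 and 0.070 across genes. In edgeR, a p-value weighs a difference against the spread between these libraries that is left after the block, moderated across genes. The permutation p of a share ranks its difference among all regroupings of the libraries. A difference is the log2 ratio of SP to vehicle as labelled, CPM uses TMM-scaled totals, and levels between genes are CPM per kilobase of merged exon (GENCODE M21, GRCm38). Class shares were compared by exact permutation. Alternatives used DESeq2 1.42.0, limma-voom 3.58.1, other scalings and filters, a GC and length correction, and left-out libraries. The scripts were tested on simulated data. The simulated differences were larger than that of any member, so the test does not bear on finding smaller ones. Members and lists were chosen with earlier results of these data known. All 30 members were named, with values per library for those at an unadjusted p under 0.05, those whose groups did not overlap and the most abundant of each class, and further genes by smallest p, up to 4 per list. Scn3b and Cacna2d2 were given per library after their values were seen. Results for some genes and sequences related to these channels are not reported here.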

Additional observations from a re-analysis of the deposited data

How the results depend on the processing

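Under the 18 alternative fits, no member passed the threshold in any but the fit without SP replicate 3 and with no replicate block, where 1 did (Cacna1h, at 0.35). The number of members at an unadjusted p under 0.05 was 4 as reported, or 13.3% beside 10.1% of all tested genes. It was 5 with no replicate block and 2 with DESeq2 and the replicate block. With no block it was 2 without vehicle replicate 2, 2 without vehicle replicate 3 and 7 without SP replicate 3. It ranged from 2 to 5 when replicate 1, 2 or 3 was left out of both groups. Over all left-out libraries it ranged from 2 to 7. The share of all tested genes at that p is not given for the alternatives, so these changes are not results about the members. Of all tested genes, 5 passed the threshold as reported, 2 with no replicate block, 36 and 132 with DESeq2 with and without the block, 384 with no filter on low counts, 9, 13 and 36 without replicate 1, 2 and 3, and 357 without SP replicate 3. The block changed no member's side of the threshold. The median log2 difference of the members ranged from -0.011 (without SP replicate 2) to 0.053. In 13 members the sign was the same in all 18 alternatives and in 17 it turned in at least 1; the cause was not tested. The exact tests of the class shares could not pass a threshold of 0.05 with 3 against 3 libraries, so they say nothing about stability; of 145 recomputed differences in share, 16 turned sign, in 13 shares and all when a replicate was left out, and with the longest transcript the exact p of Trpc1 went from 0.1 to 0.3 and that of Cacnb1 from 0.2 to 0.7. Trpc7 and Hcn4 had under 100 counts per library, with standard errors of 0.25 and 0.23, and both were lowest in SP replicate 2. The part of depth in these errors was not tested.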
